A study of Danio rerio with 6 samples.

Results

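The genes described here are those of 4 families of growth factors and their receptors, the fibroblast growth factors (FGF), the platelet-derived growth factors (PDGF), the vascular endothelial growth factors (VEGF) and the angiopoietins, with the feedback inhibitors Sprouty, Spred and Dusp6. They were chosen by name: 86 gene names in the authors' comparison table begin with one of these family names, and the 68 of them whose identifier is also in the authors' FPKM table were kept, of 24667 genes that the tables share. The choice used no measured value. The pattern also took in fgfr1op and fgfr1op2, which are named for their fusions with FGFR1 in human leukaemia and are neither ligands nor receptors.

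RNA was sequenced from hearts of 3 DN-MAML samples and 3 WT samples of adult zebrafish (Danio rerio). DN-MAML fish carry Tg(hsp70l:DN-MAML), a dominant-negative form of the Notch co-activator Mastermind that blocks transcription by Notch, under the heat shock promoter hsp70l, which is not restricted to one cell type. WT fish are labelled wild type. All fish were of the TU-AB strain and 6 to 12 months old, and all had part of the heart amputated, a heat shock of 1 h at 38 C daily, with collection 5 days after amputation. The labels do not say whether a sample is 1 heart or a pool, and p-values speak only to the spread seen among them, which may be technical.

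FGF, PDGF and VEGF ligands bind receptor tyrosine kinases, which signal through Ras and the kinase ERK. Sprouty and Spred proteins and the phosphatase Dusp6 restrain ERK, and spry4 and dusp6 are themselves transcribed in response to it. VEGF receptors and the angiopoietin receptor Tek (Tie2) are endothelial, while PDGF receptors mark fibroblasts, epicardium and mural cells. In the regenerating zebrafish heart, FGF and PDGF signals are known to act on the epicardium and VEGF on regrowing coronary vessels.

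Levels are given in FPKM (sequenced fragments per gene length and per library total), so levels of different genes can be set side by side. The FPKM add up to 852778 to 914709 per sample, and the depth is unknown. The sum of 14 cardiomyocyte markers was 52595 to 60876 FPKM in DN-MAML and 59720 to 69122 in WT, the highest sum of any list used here. Of these markers 13 were on the lower side in DN-MAML and 1 on the higher side (median log2 change -0.13). WT replicate 1 stood apart: its mean correlation over genes was 0.976 with the other WT samples and 0.975 with the DN-MAML samples. By another measure it did not: it was the highest or lowest of the 6 samples in 31.9% of all genes tested, where the samples ranged from 26.1% to 45.9%, with WT replicate 2 at the top. In limma (adjusted p under 0.05) 16 of 16556 genes passed (0.0966%), and 180 passed without WT replicate 1. Leaving out WT replicate 3 gave 4, leaving out DN-MAML replicate 2 also gave 4, and leaving out the third DN-MAML sample gave 6. Some marker sums also differed: 17 erythroid markers summed to 5947 to 9039 FPKM in DN-MAML against 9375 to 16785 in WT, and 17 mural and smooth muscle markers to 1462 to 1683 against 1865 to 1951. The 15 mural markers tested went both ways, 6 on the higher side and 9 on the lower side (median log2 change -0.064), and the abundant acta2, tagln and myl9a were lower without overlap. All 26 leukocyte markers tested were on the higher side in DN-MAML (median log2 change 0.39), with overlapping sums of 646 to 828 FPKM against 482 to 657 in WT. The sums of the endocardial list, the epicardial and fibroblast list and the thrombocyte list overlapped between groups. In bulk hearts, fewer cells of a type and less RNA per cell cannot be told apart, and the part of cell makeup in the results below was not tested.

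Of the 68 genes, 43 had a mean of at least 0.5 FPKM over the 6 samples and were tested. None of them passed limma, where 0.0966% of all genes did, and the lowest adjusted p was 0.210, for fgf6a. At an unadjusted p under 0.05 there were 4 of 43 (9.3%), against 13.2% of all genes tested. Of these, 1 was higher in DN-MAML (2.33%, against 6.99% of all genes) and 3 were lower (6.98%, against 6.23%). Their groups did not overlap in 5 of 43 genes (11.6%), against 18.8% of all genes tested. In 2 of them DN-MAML was higher (4.65%, against 9.83% of all genes) and in 3 it was lower (6.98%, against 8.98%). In both counts the lower genes include fgf6a, which reached the minimum only through its WT samples (mean 1.04 FPKM, against 0.37 in DN-MAML). The shares for both directions together lie below the background. Their median log2 change was 0.0069 (0.026 over all genes), with 22 genes on the higher side (51.2%, against 55.1% of all genes) and 21 on the lower side in DN-MAML, and 29 of 43 differed by less than 0.3. The authors' deposited table, made by a count test, calls 1 of the 51 genes with an adjusted p (1.96%), again fgf6a, where it calls 4.34% of all genes with one in both tables (2.11% higher and 2.23% lower in DN-MAML). The fusion partner genes had 12.86, 11.96 and 12.26 FPKM (fgfr1op) and 14.74, 17.3 and 18.13 FPKM (fgfr1op2) in DN-MAML, against 12.8, 11.93 and 13.74 and 16.87, 14.58 and 15.48 in WT, with overlap.

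**Figure D1:**
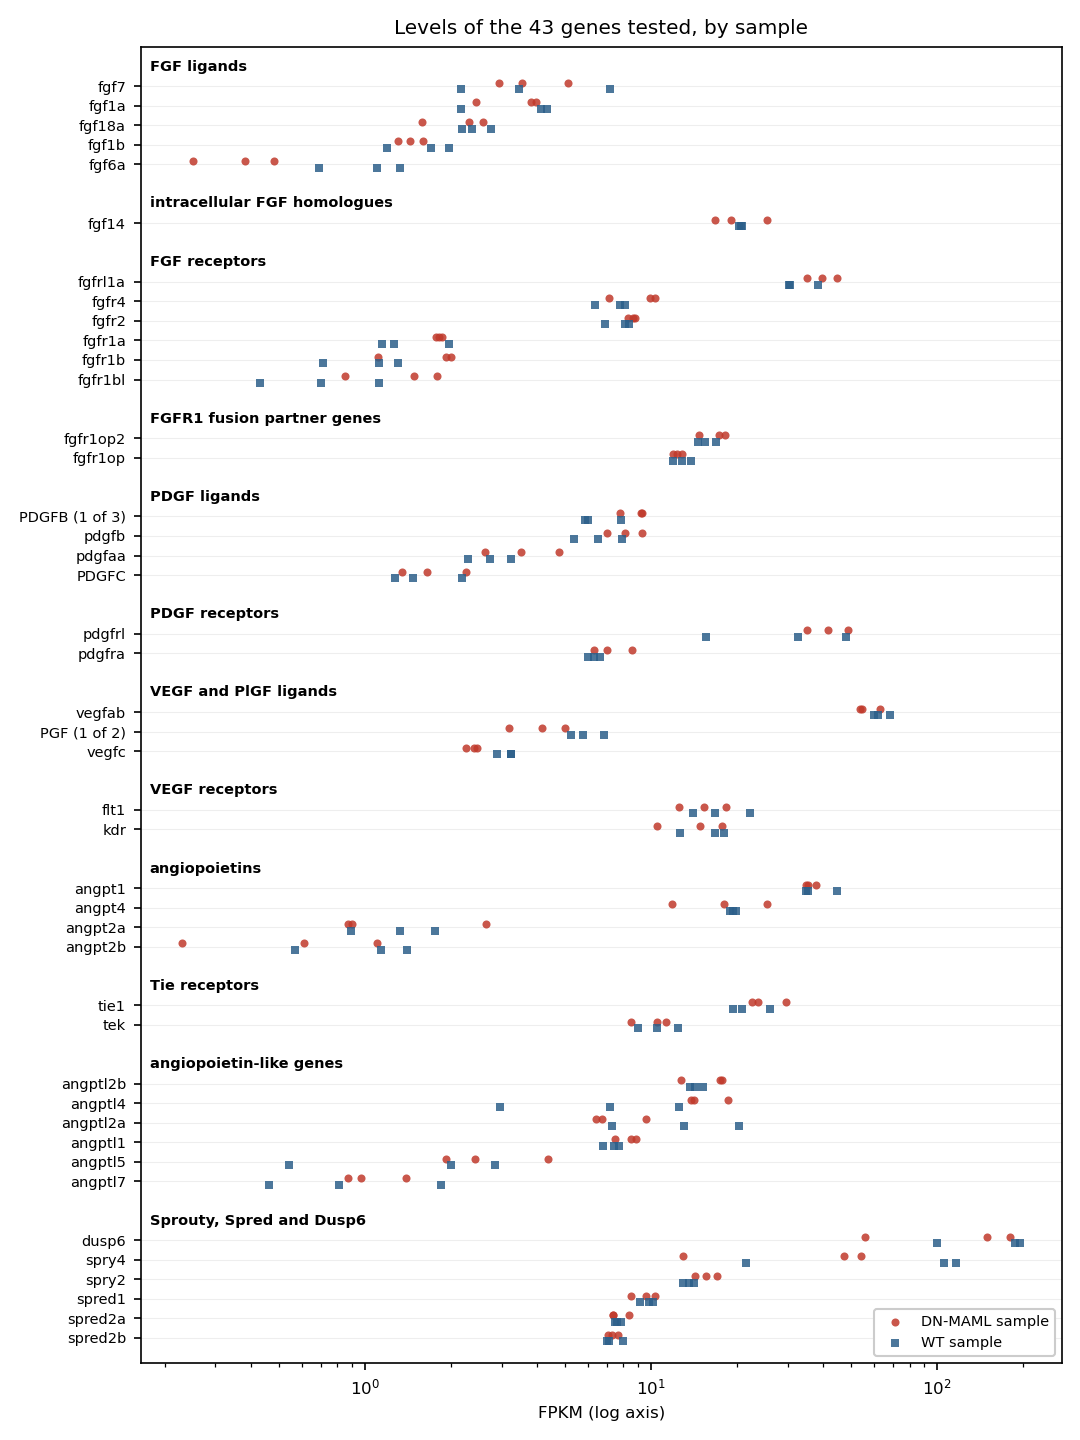
FPKM of the 43 genes tested, by role, on a log axis. Each red circle is a DN-MAML sample and each blue square a WT sample (3 each). The levels span dusp6 (144 FPKM on average) to fgf6a (0.703), and in most genes the circles and squares overlap.

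The secreted FGF ligands among the 68 genes were low, and the 5 tested were on the lower side in DN-MAML, 3 or 4 of them when 1 sample was left out. Of the 5, fgf6a reached the minimum only through its WT samples. FGF ligand identifiers outside the 68 genes include fgf17 and FGF3, at higher levels, and FGF3 and FGF10 (log2 change 0.43, SE 0.37; limma, adjusted p = 0.639), on the higher side. Of 18 ligand genes, 5 were tested, 10 lay below the minimum with at least one value above 0, and fgf6b, fgf22 and fgf23 were listed at 0 in every sample. No untested ligand exceeded 0.56 FPKM in any sample. The highest was fgf7, which is known in mammals as keratinocyte growth factor, with 5.13, 2.94 and 3.54 FPKM in DN-MAML replicates 1, 2 and 3 and 7.15, 2.17 and 3.45 in the WT replicates. These values overlapped fully (log2 change -0.015, SE 0.40), and without WT replicate 1 the change was 0.40. The broadly acting ligand fgf1a had 2.45, 3.95 and 3.81 FPKM in DN-MAML and 4.34, 2.16 and 4.11 in WT. Its paralogue fgf1b averaged 1.45 ± 0.150 and 1.62 ± 0.392 (SD, n = 3 each), and fgf18a averaged 2.15 ± 0.516 and 2.44 ± 0.291. Together the ligand genes summed to 11.39 to 13.25 FPKM in DN-MAML and 10.97 to 17.27 in WT.

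The ligand that differed most was fgf6a, whose mammalian counterpart is a muscle FGF. It had 0.38, 0.48 and 0.25 FPKM in DN-MAML and 0.69, 1.32 and 1.1 in WT, and every DN-MAML value lay below every WT value. The log2 change was -0.81 (SE 0.21) with 0.5 added to the FPKM and -1.26 with 0.1 added, and it did not pass in limma (adjusted p = 0.210). In the authors' deposited table fgf6a fell by 1.53 on the log2 scale (SE 0.342, adjusted p = 0.000794), on a mean normalized count of 40.6. With a mean of 0.703 it was the lowest gene above the minimum, which it reached through the WT samples, while fgfrl1b (0.425) and fgf13a (0.418) were the nearest below it. Among ligands under the minimum, fgf10a had 0.15, 0.12 and 0.06 FPKM in DN-MAML against 0.56, 0.22 and 0.21 in WT, and fgf8a had 0.19, 0.09 and 0.08 against 0.26, 0.27 and 0.23. Neither group pair overlapped, but no share of genes without overlap was taken below the minimum. Other ligands under the minimum lay on the higher side in DN-MAML, with overlap. Their means in DN-MAML and WT were 0.36 and 0.24 FPKM for fgf24, 0.29 and 0.26 for fgf18b, and 0.067 and 0.027 for fgf8b. The authors' deposited table puts fgf10a at -1.12 on the log2 scale (adjusted p = 0.148) and fgf8a at -0.47 (adjusted p = 0.633). The ligands fgf20a and fgf20b, of which fgf20a is needed for fin regeneration in zebrafish, were at most 0.04 FPKM.

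The FGF homologues fgf11 to fgf14 stay inside the cell and bind voltage-gated sodium channels. Of 7 such genes only fgf14 passed the minimum, and at 20.4 FPKM it stood above every secreted ligand on the list. It had 25.34, 19.02 and 16.73 FPKM in DN-MAML and 20.71, 20.22 and 20.59 in WT. The DN-MAML samples spread to both sides of the tight WT values (log2 change -0.031, SE 0.15; limma, adjusted p = 0.949). The other 6 were at most 0.58 FPKM in any sample.

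All 6 FGF receptor genes tested, of which fgfr1bl is uncertain as described below, were on the higher side in DN-MAML. Their median log2 change was 0.27, though none passed limma. This direction held for all 6 under both other scalings and without each sample in turn. The most abundant was fgfrl1a, a receptor without a kinase domain, with 44.44, 35.11 and 39.65 FPKM in DN-MAML and 38.38, 30.64 and 30.30 in WT (log2 change 0.26, SE 0.13; adjusted p = 0.434). WT replicate 1 lay within the DN-MAML range and the other WT samples below it. Of the kinase receptors, fgfr4 had 7.13, 10.35 and 9.90 FPKM in DN-MAML against 6.34, 7.77 and 8.12 in WT. The other major receptor, fgfr2, had 8.64, 8.76 and 8.32 against 8.34, 6.91 and 8.12. Together fgfr2 and fgfr4 made up 77.3% ± 4.01 of the kinase receptor FPKM in DN-MAML and 80.8% ± 3.41 in WT (SD, n = 3 each). The 3 fgfr1 genes were each under 2 FPKM, fgfr1a with 1.77, 1.85 and 1.82 against 1.96, 1.26 and 1.15, and fgfr1b with 1.99, 1.92 and 1.11 against 1.3, 0.71 and 1.12. Below the minimum, fgfr3 had 0.30 to 0.41 FPKM in the 6 samples, and fgfrl1b had 0.34 to 0.40 in DN-MAML against 0.42 to 0.52 in WT, the opposite side from fgfrl1a.

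Summed over the 6 kinase receptors, the level was 21.34, 25.07 and 22.30 FPKM in DN-MAML and 19.02, 18.08 and 19.34 in WT. The groups do not overlap, and DN-MAML replicate 1 and WT replicate 3 come closest. Of 12 role classes, 1 had summed FPKM without overlap between groups, the class of all 8 FGF receptor genes, fgfrl1a included. It summed to 60.58 to 66.12 FPKM in DN-MAML and 49.14 to 57.89 in WT. Of all single genes tested, 18.8% had no overlap, but this share is not one for sums, for which none was taken. Both the kinase receptor sum and the class sum were looked at after the values were seen and were not tested.

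**Figure D2:**
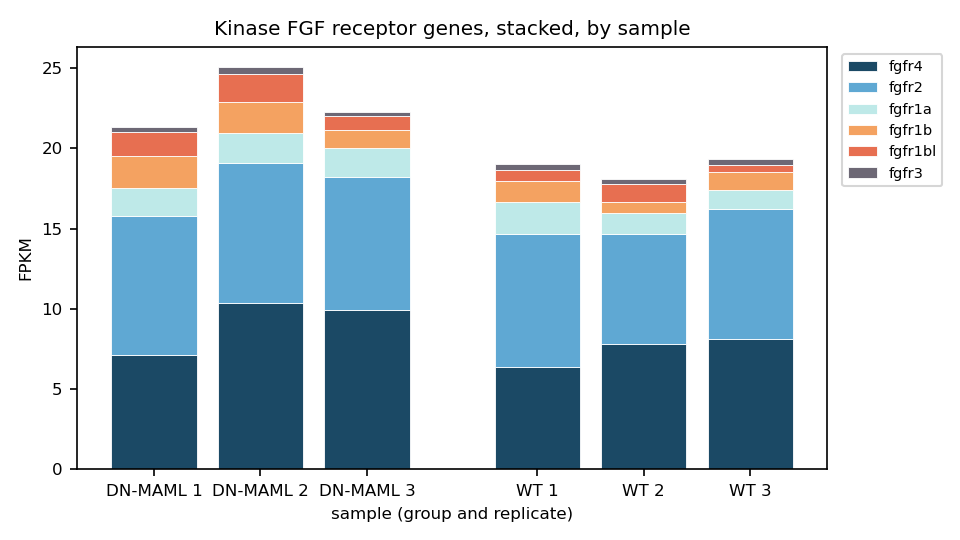
FPKM of the 6 kinase FGF receptor genes stacked for each sample, DN-MAML replicates 1 to 3 on the left and WT replicates 1 to 3 on the right. The bars reach 21.34 to 25.07 FPKM in DN-MAML and 18.08 to 19.34 in WT, and fgfr4 and fgfr2 fill most of each.

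The receptor fgfr1bl had 1.48, 1.78 and 0.85 FPKM in DN-MAML and 0.70, 1.12 and 0.43 in WT (log2 change 0.58, SE 0.27; limma, adjusted p = 0.399). For the same identifier the authors' deposited table has a log2 change of 0.046 (SE 0.238). With 0.5 added to the FPKM, only fgf6a among the 43 genes differs more between the tables. With 0.1 added, fgf6a moved toward the authors' value (-1.26, against -1.53). The change of fgfr1bl moved further from the authors' value, to 0.82. The gene name table puts fgfr1bl on another identifier, which had 1.84, 1.67 and 1.30 FPKM in DN-MAML and 2.23, 1.28 and 1.95 in WT. These values overlapped and lay on the lower side in DN-MAML (log2 change -0.13, SE 0.20, limma adjusted p = 0.812). How reads shared between fgfr1 paralogues were assigned is not given in the sources used here, so fgfr1bl is uncertain.

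Of the PDGF ligands among the 68 genes, 4 of 4 were on the higher side in DN-MAML (median log2 change 0.31), 3 of 4 after quantile normalization and without DN-MAML replicate 1 or WT replicate 2. PDGF-B, which endothelium uses to recruit mural cells, has 2 genes here. The gene called PDGFB (1 of 3), pdgfbb in the gene name table, had 9.24, 7.77 and 9.26 FPKM in DN-MAML and 7.87, 6.00 and 5.88 in WT. WT replicate 1 lay just above DN-MAML replicate 2, and the other WT samples were lower. Its log2 change was 0.39 (SE 0.14; limma, adjusted p = 0.30; unadjusted p = 0.0225), while its change is 0.37 in the authors' deposited table (adjusted p = 0.153). Its paralogue pdgfb, pdgfba in the gene name table, had 8.09, 7.03 and 9.25 FPKM in DN-MAML against 7.89, 5.37 and 6.51 in WT. Summed, the paralogues gave 16.9 ± 1.9 FPKM in DN-MAML and 13.2 ± 2.3 in WT (SD, n = 3 each), with overlap. The PDGF-A gene pdgfaa had 4.77, 3.52 and 2.63 FPKM in DN-MAML against 3.24, 2.29 and 2.73 in WT, and PDGFC had 2.25, 1.35 and 1.64 against 2.19, 1.27 and 1.47. PDGF ligands outside the 68 genes lay on the lower side. In the authors' deposited table pdgfab has a log2 change of -0.63 (adjusted p = 0.254) and PDGFB (2 of 3) of -0.32 (adjusted p = 0.786). Among identifiers that only the gene name table calls PDGF ligands, limma gave -0.34 for PDGFA (adjusted p = 0.717) and -0.073 for PDGFD (adjusted p = 0.865). The PDGFA and pdgfab identifiers may stand for the same gene, which was not tested.

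The PDGF receptor pdgfra, a fibroblast and epicardial marker, had 8.59, 6.29 and 6.98 FPKM in DN-MAML and 6.30, 6.00 and 6.61 in WT (log2 change 0.18, SE 0.13; limma, adjusted p = 0.564). In the authors' deposited table its log2 change is 0.20 (adjusted p = 0.528). A second entry named pdgfra, without FPKM under its identifier, has 0.078 there (adjusted p = 0.901). The secreted receptor-like gene pdgfrl had 35.10, 41.62 and 48.64 FPKM in DN-MAML. In WT it had 32.48, 15.50 and 47.79. WT replicate 2 was by far the lowest, and without it the log2 change of 0.51 (SE 0.41) became 0.071.

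Of the VEGF ligands among the 68 genes, 3 of 3 tested were on the lower side in DN-MAML. They stayed there under both other scalings and without each sample in turn. VEGF ligand identifiers outside the 68 genes went both ways. The VEGF-D gene figf was on the higher side (log2 change 0.83, SE 0.19, limma adjusted p = 0.173). A second VEGFA identifier was on the lower side (log2 change -0.085, SE 0.15, limma adjusted p = 0.838). The main VEGF ligand among the 68 genes was vegfab, a VEGF-A gene that drives endothelial growth. It had 54.61, 53.51 and 63.08 FPKM in DN-MAML and 61.91, 60.28 and 68.18 in WT. The groups overlap through DN-MAML replicate 3 (log2 change -0.15, SE 0.10; limma, adjusted p = 0.548). The lymphatic and venous factor vegfc had 2.47, 2.41 and 2.25 FPKM in DN-MAML and 3.23, 2.88 and 3.24 in WT. Here the groups did not overlap and each was tight (log2 change -0.33, SE 0.12), yet vegfc did not pass over all genes (limma, adjusted p = 0.299; authors' deposited table, adjusted p = 0.129). The placental growth factor gene called PGF (1 of 2), a ligand of Flt1, had 3.18, 5.00 and 4.15 FPKM in DN-MAML and 6.85, 5.79 and 5.23 in WT. Again all DN-MAML samples were below all WT samples (log2 change -0.50, SE 0.17; limma, adjusted p = 0.294). The VEGF-B gene vegfbb was listed at 0 in the DN-MAML samples and in WT replicate 1, and at 0.07 and 0.16 in WT replicates 2 and 3.

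**Figure D3:**
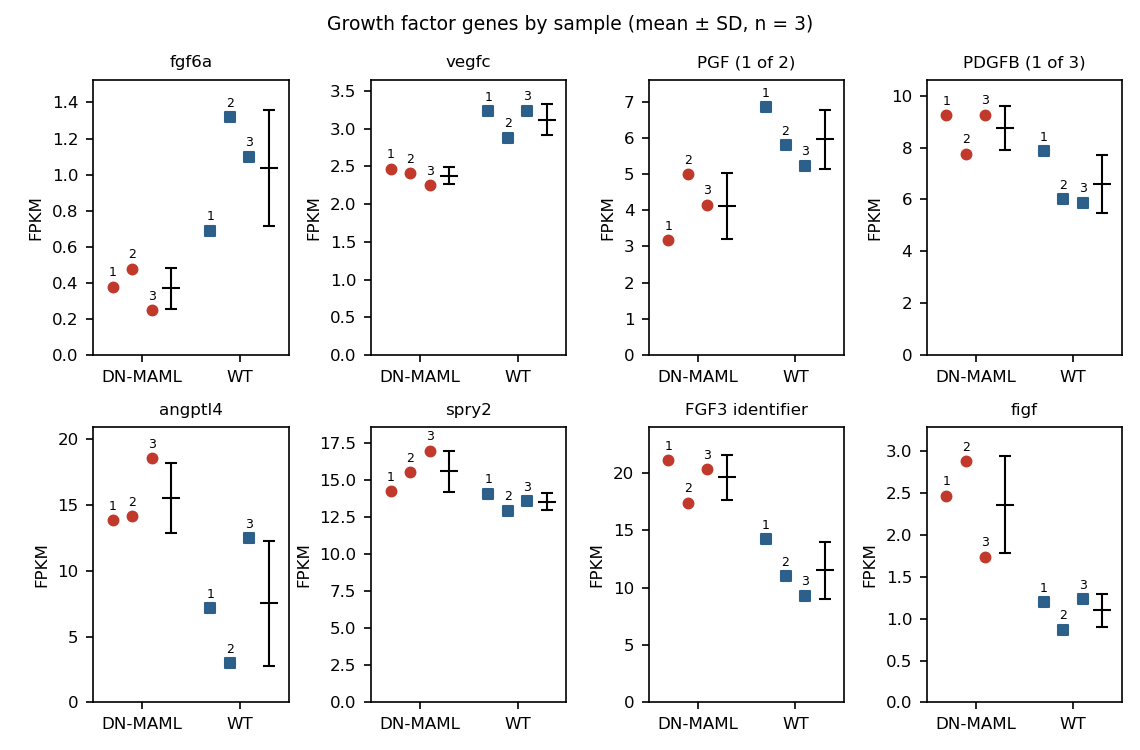
FPKM by sample of 8 growth factor and feedback genes, DN-MAML circles left and WT squares right, numbered by replicate, with the mean and SD of 3 samples beside them. In fgf6a, vegfc and PGF (1 of 2) all DN-MAML samples lie below the WT samples, and in angptl4, spry2, the FGF3 identifier and figf all lie above, while PDGFB (1 of 3) overlaps. None passed limma over all genes.

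The VEGF receptors flt1, which binds VEGF-A tightly and limits its action, and kdr were alike in level and overlapped between groups. flt1 had 15.33, 12.53 and 18.22 FPKM in DN-MAML and 13.96, 16.70 and 22.16 in WT (log2 change -0.18, SE 0.19; limma, adjusted p = 0.716). kdr had 10.45, 14.81 and 17.71 FPKM in DN-MAML and 17.95, 12.56 and 16.65 in WT. Its log2 change was -0.15 (SE 0.21; limma, adjusted p = 0.798). The 27 endothelial markers tested had 18 genes on the higher side and 9 on the lower side, and all 29 matched summed to 509 to 609 FPKM in DN-MAML against 527 to 557 in WT.

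Among the angiopoietins, angpt1, the activating ligand of Tek, was the highest and had 35.30, 34.85 and 37.53 FPKM in DN-MAML and 44.63, 34.64 and 35.39 in WT. WT replicate 1 was above the 5 others, which lay close together, and the log2 change of -0.081 (SE 0.12) became 0.035 without it. The gene angpt4 had 11.85, 17.91 and 25.36 FPKM in DN-MAML and 18.92, 19.32 and 19.81 in WT, a wide spread around tight values as for fgf14. The context-dependent Tek antagonists angpt2a and angpt2b were low, at 0.90, 0.87 and 2.64 against 1.75, 1.32 and 0.89 FPKM for angpt2a, and 0.61, 1.1 and 0.23 against 0.57, 1.14 and 1.40 for angpt2b. For angpt2b the log2 change was -0.45 (SE 0.33; limma, adjusted p = 0.581). The level of angpt1 over the sum of both angpt2 genes was 18.0 ± 5.16 in DN-MAML and 16.3 ± 2.67 in WT (SD, n = 3 each).

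The receptor tek had 11.25, 8.50 and 10.50 FPKM in DN-MAML and 10.48, 8.97 and 12.36 in WT. Its partner tie1, which has no well-established ligand of its own, had 23.66, 22.55 and 29.65 against 26.01, 19.36 and 20.83 (log2 change 0.19, SE 0.15; limma, adjusted p = 0.601). Neither differed beyond the spread between samples.

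The angiopoietin-like genes share the fold of angiopoietins but do not bind Tek. The lipoprotein lipase inhibitor angptl4, which responds to fasting and hypoxia, had 13.81, 14.12 and 18.55 FPKM in DN-MAML and 7.17, 2.97 and 12.46 in WT. All DN-MAML samples were above the WT samples, of which replicate 2 was lowest. The log2 change of 1.18 had a wide error (SE 0.48; limma, adjusted p = 0.384) and was 0.67 without WT replicate 2. The authors' deposited table puts angptl4 at 0.92 on the log2 scale (adjusted p = 0.0820). The gene angptl2a had 9.62, 6.73 and 6.4 FPKM in DN-MAML and 20.31, 7.29 and 13.05 in WT, overlapping through DN-MAML replicate 1. In limma its log2 change was -0.71 (SE 0.37, adjusted p = 0.463), and in the authors' deposited table -0.81 (adjusted p = 0.0676). Its paralogue angptl2b, the highest of the class, averaged 15.9 ± 2.75 and 14.3 ± 0.797 (SD, n = 3 each), the opposite side. Of the others, angptl1 averaged 8.29 ± 0.720 and 7.31 ± 0.454, and angptl5 and angptl7 overlapped widely. Below the minimum, angptl6 was at most 0.02 FPKM in any sample.

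The feedback genes held both the most and the least variable genes with solid levels. The ERK target spry4 had 12.9, 54.15 and 47.16 FPKM in DN-MAML replicates 1, 2 and 3 and 21.38, 115.94 and 105.7 in the WT replicates, 8.99-fold between the lowest and highest sample. Replicate 1 was the lowest of its group in both groups, so WT replicate 1 lay below 2 of the DN-MAML samples. The log2 change was -0.98 (SE 0.90; limma, adjusted p = 0.672), and leaving out a sample moved it between -1.77 (WT replicate 1 left out) and -0.34 (DN-MAML replicate 1 left out). The authors' deposited table has -0.72 for spry4 (adjusted p = 0.554). spry4 is named here after its values were seen. The ERK phosphatase dusp6 was the highest gene of all 68, with 55.70, 148.89 and 180.04 FPKM in DN-MAML and 99.97, 186.35 and 194.74 in WT. It was again lowest in replicate 1 of each group, with a log2 change of -0.42 (SE 0.52; limma, adjusted p = 0.763) that turned to 0.091 without DN-MAML replicate 1.

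The other inhibitors were far steadier. spry2 had 14.23, 15.50 and 16.97 FPKM in DN-MAML and 14.08, 12.93 and 13.55 in WT, without overlap by a small margin (log2 change 0.19, SE 0.10; limma, adjusted p = 0.443). It was on the other side from spry4 and dusp6. spred1 averaged 9.46 ± 0.915 and 9.68 ± 0.524 FPKM, spred2a 7.70 ± 0.557 and 7.65 ± 0.172, and spred2b 7.35 ± 0.292 and 7.38 ± 0.540 (SD, n = 3 each). Over the 6 samples the coefficient of variation was 4.82% for spred2a and 5.28% for spred2b, against 71.8% for spry4 and 38.5% for dusp6. The median was 19.4% over the 43 genes and 14.6% over all genes tested. spred3 was at most 0.01 FPKM.

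**Figure D4:**
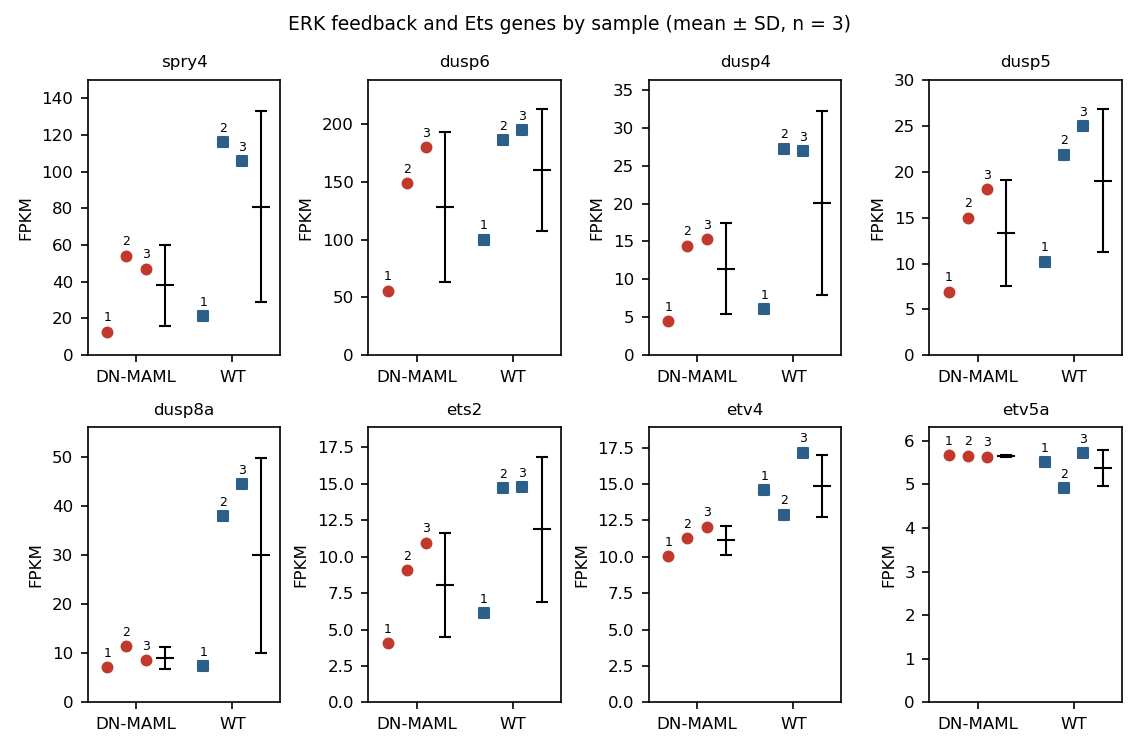
FPKM by sample of the ERK feedback genes spry4, dusp6, dusp4 and dusp5, the stress kinase phosphatase dusp8a and the Ets factors ets2, etv4 and etv5a. DN-MAML circles are left and WT squares right, numbered by replicate, with the mean and SD of 3 samples. In the first 6 panels replicate 1 is lowest in each group; etv5a lies between 4.91 and 5.72 FPKM in all samples.

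The phosphatases dusp4, dusp5 and dusp8a and the Ets factor ets2 were likewise lowest in replicate 1 of both groups. The phosphatases and Ets factors given here are named after their values were seen. The share of all genes with this order was not taken. The phosphatase dusp4 had 4.48, 14.44 and 15.26 FPKM in DN-MAML and 6.03, 27.25 and 26.90 in WT. dusp5 had 6.94, 15 and 18.1 against 10.21, 21.88 and 24.99. The stress kinase phosphatase dusp8a had 7.14, 11.49 and 8.65 against 7.40, 37.98 and 44.54. Of the 6 other phosphatases on the list, 5 were on the lower side (median log2 change -0.47), and none passed limma. The Ets factor list did not share this order throughout: ets2 had 4.08, 9.09 and 10.96 FPKM in DN-MAML and 6.14, 14.71 and 14.78 in WT, while etv5a had 5.67, 5.66 and 5.64 against 5.51, 4.91 and 5.72. The FGF target etv4 had 10.04, 11.26 and 12.06 FPKM in DN-MAML and 14.59, 12.89 and 17.14 in WT, without overlap (log2 change -0.40, SE 0.13; limma, adjusted p = 0.277). Of 9 Ets factors tested, 5 were on the higher side and 4 on the lower side.

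Further along the pathways little differed. Of 31 Ras-ERK adaptors and kinases tested, 23 were on the higher side, with a median log2 change of 0.050 and none at an unadjusted p under 0.05. Of 11 PI3K-Akt genes, 7 were on the higher side (median 0.023), and of 5 FGF and VEGF co-receptors and modulators, 2 (median -0.0048). Among 12 genes that sense hypoxia, which induces VEGF-A, 3 had an unadjusted p under 0.05 and no overlap, where 13.2% of all genes tested had such a p and 18.8% had no overlap. The hypoxia factor hif1aa had 22.46, 21.76 and 20.83 FPKM in DN-MAML and 27.19, 24.35 and 24.29 in WT (log2 change -0.22, SE 0.09). On the higher side, vhl, which targets hypoxia factors for degradation, had 13.28, 13.38 and 13.35 FPKM against 11.57, 7.68 and 11.32, and the prolyl hydroxylase egln2 had 12.45, 10.82 and 15.53 against 10.01, 9.44 and 9.98. None of the 3 passed over all genes (limma, adjusted p = 0.376, 0.344 and 0.320 for hif1aa, vhl and egln2), and they were named after their values were seen. In the authors' deposited table no gene of these 6 pathway lists passes. There were 119 cell type marker entries with an adjusted p, with tbx18 counted on both the mural and the epicardial list. Of these entries the authors' deposited table calls 4 higher (3.36%, against 2.11% of all genes). They are the endothelial cldn5a (log2 change 0.92, adjusted p = 0.00114), the epithelial krt4 and the complement genes c1qa and c1qb. The same authors' deposited table calls 6 lower (5.04%, against 2.23%), among them the smooth muscle actin acta2 (-1.31, adjusted p = 2.68e-07), the ventricular myosin vmhc and the globins ba1 and ba1l.

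**Figure D5:**
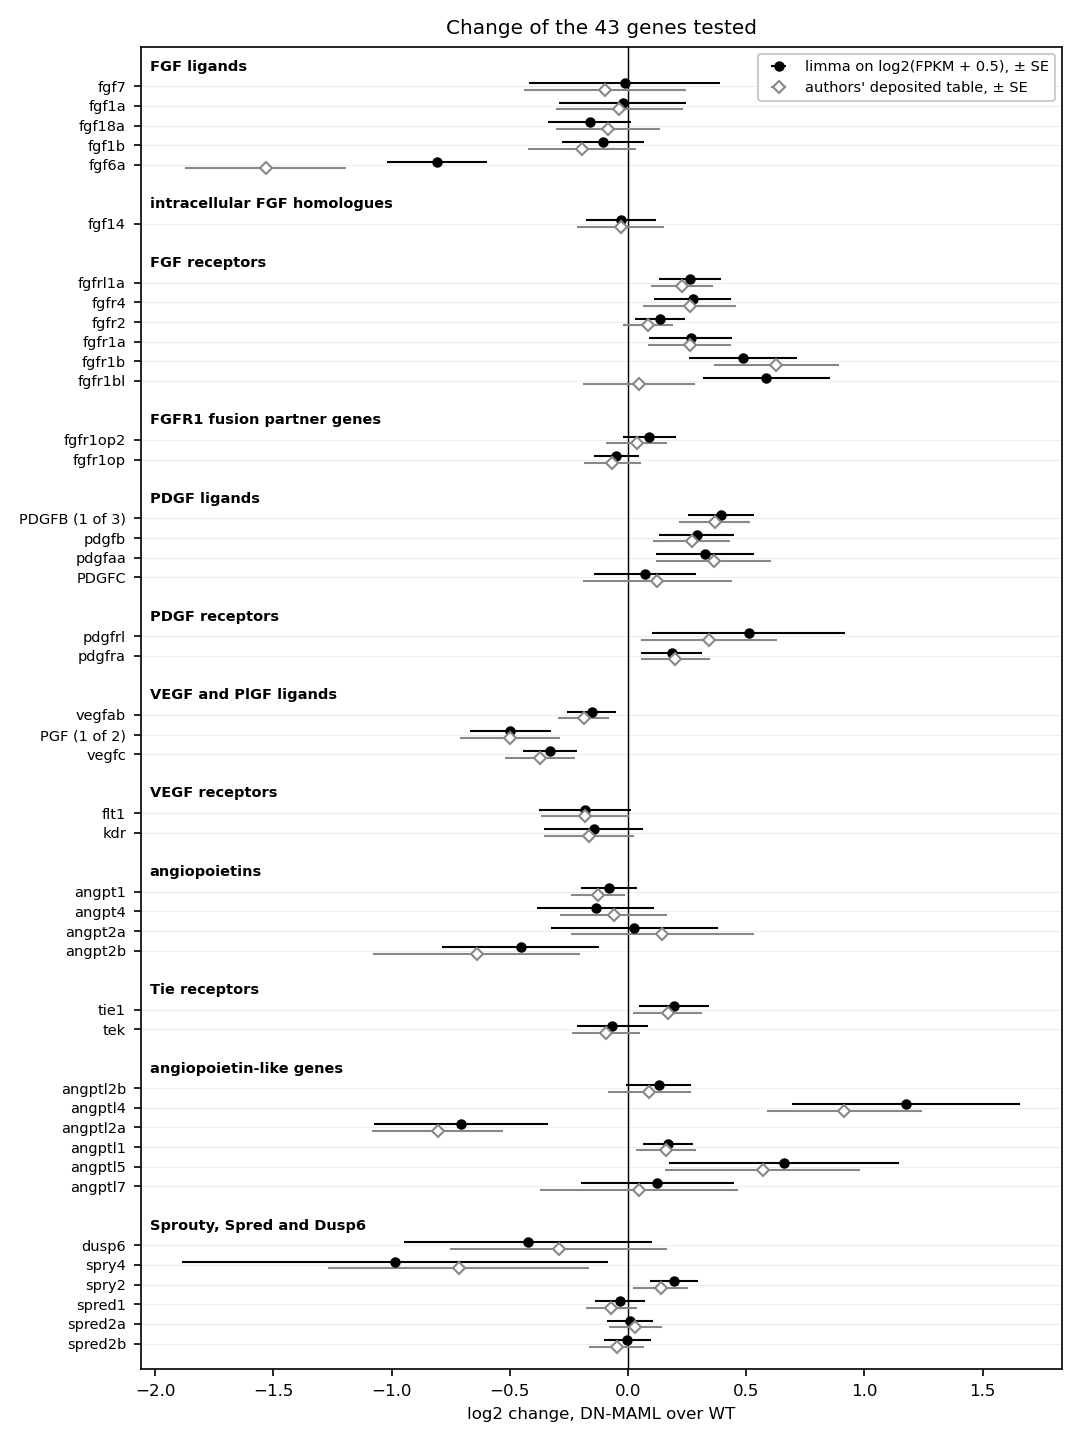
Log2 change of DN-MAML over WT for the 43 genes tested, with limma's value on log2(FPKM + 0.5) in black and that of the authors' deposited table in grey, bars showing the SE. Both have the same sign in every gene. Of these 43 genes, the FGF receptors and PDGF ligands lie right of 0 and the VEGF ligands and receptors left. The genes fgf6a, angptl4, spry4 and fgfr1bl differ by over 0.2 between the tables.

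The tables use different sets of identifiers, and 18 of the 86 name matches have no FPKM under their identifier, among them kdrl, vegfaa, pdgfrb, fgf17 and fgf3. In the authors' deposited table fgf3, a ligand of early embryonic patterning, rose with a log2 change of 0.72 (SE 0.162, adjusted p = 0.000990, mean normalized count 1575). No other of the 18 passes there. The FPKM table holds an identifier that the gene name table calls FGF3, with 21.12, 17.39 and 20.31 FPKM in DN-MAML and 14.23, 11.00 and 9.31 in WT. Every DN-MAML sample was above every WT sample, and the log2 change of 0.76 (SE 0.16) was close to that of the authors' count test. In limma it did not pass (adjusted p = 0.156). At 19.6 FPKM in DN-MAML it stood above each secreted FGF ligand of the 68 genes.

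Other identifiers reached through the gene name table filled the gaps and did not pass limma. The main endothelial VEGF receptor kdrl had 30.16, 30.09 and 40.93 FPKM in DN-MAML and 27.56, 28.91 and 38.60 in WT, higher than kdr or flt1 and overlapping. An FGF known from zebrafish heart regeneration, fgf17, had 27.93, 28.37 and 23.20 FPKM in DN-MAML against 32.11, 23.79 and 24.80 in WT. An identifier called PDGFRB, the mural cell receptor, had 11.86, 9.99 and 12.35 against 13.12, 7.09 and 7.88. A second VEGFA identifier had 15.78, 18.45 and 17.68 against 22.63, 15.17 and 17.98. The gene that the authors call figf and the gene name table VEGFD, a relative of vegfc, had 2.47, 2.88 and 1.74 FPKM in DN-MAML and 1.20, 0.87 and 1.23 in WT. Its groups did not overlap and lay opposite to those of vegfc (log2 change 0.83, SE 0.19; limma, adjusted p = 0.173), and the authors' deposited table has 0.84 for figf (adjusted p = 0.0835). These identifiers lie outside the 68 genes and were named after their values were seen.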

How the data were processed

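The submitters' processing notes name DESeq2, featureCounts, STAR, cutadapt and FastQC, without versions. Which build, annotation and FPKM tool were used is not stated there. The authors deposited FPKM of 32105 genes in 6 samples. Their second table compares the groups over 33737 genes, and the mean normalized count (a signal over samples), log2 fold change and its error, score (change over error) and p-value, also adjusted, were taken from it as deposited. No counts per sample were used.

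Log2(FPKM + 0.5) was taken for 16556 genes (mean FPKM 0.5 or more) and fitted in limma 3.58.1 (R 4.3.3; trended, robust, no block), with Benjamini-Hochberg adjustment over all genes and a threshold of 0.05. The steps were tested on simulated data. Errors of log2 changes are SE, and FPKM carry SD. Tables were made in Python 3.11.15 with pandas 2.3.3.

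The genes were taken by family name, and no measured value entered that choice. Earlier results of these data were, however, known when the genes and lists were set. Of 243 list genes, 217 matched an identifier by the authors' name or a gene name table. Sample values are given for genes past a threshold in limma or the authors' table or at an unadjusted p under 0.05, and for the highest and lowest-p gene of each role. Further genes are named as chosen after their values were seen, or to complete a role class. No sequences were at hand. One gene below the minimum is not reported here.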

Additional observations from a re-analysis of the deposited data

How the results depend on the processing

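None of the 43 genes passed under any of the 14 alternatives (2 other pseudocounts, 2 other filters, 2 other scalings, no robust estimate, the replicate block, and leaving out each sample). The number of these genes at an unadjusted p under 0.05 was 8 of 65 with no filter, where low genes enter. It was 11 with the replicate number as a block, and 3 to 6 without 1 sample. The share of all genes at that unadjusted threshold was not taken under the alternatives. These counts therefore have no background beside them and say nothing particular about the 43 genes. Over all genes, 9 passed with a minimum of 2 FPKM, 10 after quantile normalization, 0 with the replicate block, and 4 to 180 without 1 sample. With the block, spry4 had the same log2 change with an SE of 0.11 (limma, adjusted p = 0.130). Same-numbered samples correlated at 0.208, -0.026 and 0.140 in their deviations from group means. Samples with unlike numbers correlated at -0.224 to 0.094. The numbers were not shown to mark pairs, nor shown not to, so the fit with the block is no stronger evidence. Alternatives were run for single genes only for the 20 named by rule and spry4, and 284 of these values kept their direction. The 7 that did not came from leaving out 1 sample: fgf7 ranged from -0.36 to 0.40, angpt1 from -0.15 to 0.035, dusp6 from -0.75 to 0.091 and fgf14 from -0.20 to 0.097. The cause was not tested. The median log2 change of the 43 genes was -0.0070 to 0.095 without 1 sample. The authors' single call, fgf6a (count test, adjusted p = 0.000794), was not rerun under other settings. In limma the adjusted p of fgf6a was 0.186 to 0.257 over the settings with all samples that tested it. Without 1 sample it was 0.083 to 0.462. SEs of log2 changes ran from 0.10 to 0.90 with a median of 0.17, so small changes could not be told from none, and the depth behind the FPKM is unknown.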
